A study of Saccharomyces cerevisiae with 24 samples.

Results

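PolyA selection keeps RNAs that end in a stretch of adenosines. The libraries described here show what it kept and what it lost in budding yeast (Saccharomyces cerevisiae) held in mitosis. They are all libraries labelled as mitotic arrest (M), 12 of the 24 in the series, and were chosen by the arrest, library type, strain code and replicate number in the column names. Each of 6 RNA samples was made into a polyA library (KAPA mRNA HyperPrep) and a total library (KAPA RNA HyperPrep, with ribosomal RNA left in), so every polyA library was compared with the total library of the same RNA.

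The cells were W303-1A, mating type a, of 2 strains with 3 biological replicates each, grown at 25°C. The control strain carried a Pk tag on Ycg1 (Ycg1-3PK), a subunit of the chromosome-organising complex condensin. In the Ycg1Degron1 strain the MET3 promoter, which methionine represses, drove YCG1, and the protein carried an auxin degron that the plant factor OsTIR1 recognises. Both strains were held in G1 by the mating pheromone α-factor for 1.5 h and then for 2 h in rich YPD medium with 88 μg/ml auxin, when the G1 sample was taken. For the M sample they were released into YPD with auxin and nocodazole, which depolymerises microtubules, for 2 h. All M cultures therefore shared the pheromone block, the medium change, auxin and nocodazole. The columns name the strains by the codes 14 and 18, which the labels do not explain, so results are given by code and no code is called a strain.

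Most yeast messenger RNAs made by RNA polymerase II are cleaved at their 3′ end and given a poly(A) tail, which supports export, translation and stability. Ribosomal, transfer, small nuclear and small nucleolar RNAs mature by other routes and normally carry no long tail, although short oligo(A) tails can mark them for trimming or decay by the nuclear exosome. Yeast mitochondrial messenger RNAs are also untailed, and their 3′ ends form at a conserved sequence of 12 bases, the dodecamer.

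The dodecamer is shown because the mitochondrial messenger RNAs were among the RNAs most depleted by polyA selection. Of the 13 bases that form the longest run shared by the 500 bases after the stop codons of COX1, COX2, COX3, COB and ATP6, it is the last 12, AATAATATTCTT. These were searched on both strands in the 500 bases after each stop codon of the R64 assembly (RefSeq). On the gene's strand it was found after 5 of 5994 nuclear genes (0.083%). Among the 19 mitochondrially encoded reading frames, the 5 genes just named hold it by construction, and of the other 14 it was found after 2, AI5_BETA and Q0255. On the other strand it was found after 0 mitochondrial and 5 nuclear genes. The windows below are on the + strand, 5′ to 3′, with the dodecamer in capitals:
COX1, chrMT:26761-26790: taatataatAATAATATTCTTataaaaata
ATP6, chrMT:29344-29373: cccccttttAATAATATTCTTttatctaat
COB, chrMT:43736-43765: taatactttAATAATATTCTTaaaaataat
COX2, chrMT:74567-74596: aataattatAATAATATTCTTaaatataat
COX3, chrMT:80114-80143: tattattatAATAATATTCTTacaaatata

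Small nucleolar RNAs (snoRNAs) guide chemical modification of ribosomal RNA, and 1 of each class is shown with boxes of that class marked. The box C/D snoRNA snR190 had the lowest ratio of polyA to total of all snoRNAs tested, and its C box (TGATGA) and D box (CTGA) stand in capitals. The box H/ACA snoRNA snR191 lies in an intron and had the lowest ratio of the intron-hosted snoRNAs, and its ACA box stands in capitals, while its H box is not marked. Both are the genomic sequence in R64 on the − strand, which is the strand of the gene, and neither ends in a run of A:
snR190, chrX:139761-139950: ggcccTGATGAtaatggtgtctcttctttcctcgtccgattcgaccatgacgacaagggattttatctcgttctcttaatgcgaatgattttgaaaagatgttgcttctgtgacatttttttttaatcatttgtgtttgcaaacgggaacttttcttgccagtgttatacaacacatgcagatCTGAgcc
snR191, chrXIV:721938-722211: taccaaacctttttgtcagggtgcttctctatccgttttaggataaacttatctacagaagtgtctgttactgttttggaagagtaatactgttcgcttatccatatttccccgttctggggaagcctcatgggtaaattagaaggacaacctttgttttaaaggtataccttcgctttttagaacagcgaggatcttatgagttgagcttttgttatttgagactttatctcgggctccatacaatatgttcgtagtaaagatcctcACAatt

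The libraries were deep but unlike in content. The polyA libraries held 10306492 to 19056980 reads (median 11192913), of which 89.4 to 96.3% fell on features with systematic names starting with Y, mostly nuclear protein-coding genes. The total libraries held 13932410 to 20358775 reads (median 16675267), but Y-named features took only 3.65 to 3.96% of them, 508684 to 805916 reads. Precision for messenger RNAs was therefore set by the total libraries. The arrest was checked with marker genes: 9 of 9 mitotic genes, CLB2 and CDC5 among them, were higher in M than in G1 (1.67-fold to 15.8-fold in the polyA medians, 1.84-fold to 17.2-fold in the total medians). Of 9 G1 and pheromone-response genes, the cyclin-dependent kinase inhibitor gene SIC1 was the exception, at 1.00 and 0.951 times its G1 level, and the other 8 were lower in M.

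YCG1 itself was measured first, since its promoter and protein were altered in 1 strain. In polyA libraries its level, in reads per 1000000 Y-named reads after scaling by the trimmed mean of M-values (TMM), was 76.5, 67.3 and 69.4 in code 18 and 15.7, 14.3 and 12.8 in code 14. In total libraries its level was 101, 87.8 and 76.6 in code 18 and 30.8, 29.6 and 29.7 in code 14. The codes thus did not overlap in either library type. Its log2 ratio of polyA to total was -0.53 ± 0.14 (SE), below the 1.5-fold threshold for a call (adjusted p = 0.0062, edgeR quasi-likelihood test). Within the codes the log2 ratio ran from -0.41 to -0.14 in code 18 and from -1.18 to -0.95 in code 14, without overlap. The difference between the codes was 0.76 ± 0.25 and was not called over all features (unadjusted p = 0.0069, adjusted p = 0.85, edgeR).

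Nuclear ribosomal RNA was the main component that polyA selection removed. Features of the ribosomal DNA repeat took 95.5 to 95.8% of reads in total libraries (median 95.7%) and 3.66 to 10.5% in polyA libraries (median 6.12%). Y-named genes other than Ty retrotransposons took 3.26 to 3.57% in total and 85.5 to 91.7% in polyA libraries, with medians of 3.37% and 89.6%. The groups did not overlap in either class, and all 6 RNA samples moved the same way (exact paired permutation test, two-sided p = 0.031, the smallest that 6 pairs can give, adjusted p = 0.0339 over the classes). Within the repeat, single features could not be read: the expectation-maximisation counting left the 35S precursor RDN37 at 0 in every polyA library and the 5.8S gene RDN58 at 0 in every total library, and identical copies carried identical values.

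Other untailed RNAs were also a far smaller share of polyA libraries. Mitochondrial ribosomal RNA took 0.194 to 0.251% of reads in total libraries (median 0.230%) and 0.00170 to 0.00408% in polyA libraries (median 0.00243%). Box C/D snoRNAs took a median of 0.0843% in total and 0.00168% in polyA libraries, and box H/ACA snoRNAs 0.0891% and 0.00647%. The spliceosomal small nuclear RNAs took a median of 0.0575% against 0.00262%, and mitochondrially encoded protein genes 0.0405% against 0.000679%. In each of these classes all 6 pairs moved down (exact paired permutation test, two-sided p = 0.031, adjusted p = 0.0339). Transfer RNAs were hardly captured in either library type, with reads on 136 of 275 nuclear and 1 of 24 mitochondrial genes.

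**Figure D1:**
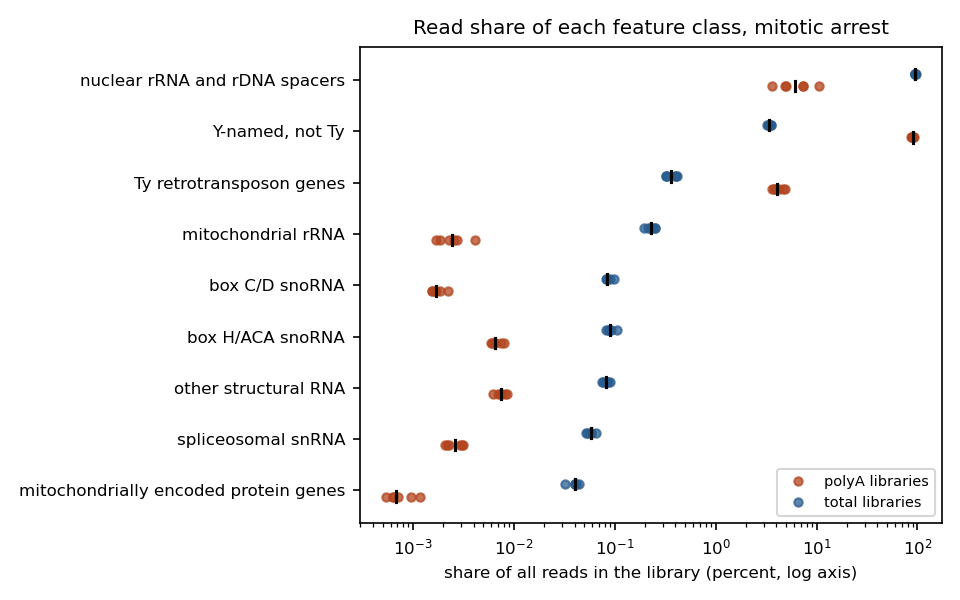
Share of all reads (percent, log axis) that each feature class took in each of the 6 polyA and 6 total libraries of mitotic arrest, 1 point per library with the median as a bar. Nuclear ribosomal RNA stood at a median of 95.7% in total and 6.12% in polyA libraries, and Y-named genes other than Ty at 3.37% and 89.6%.

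To compare single transcripts, ratios were scaled on Y-named features and fitted with the RNA sample as a block. A feature was called at an adjusted p of at most 0.05 and a change of at least 1.5-fold (edgeR quasi-likelihood test, Benjamini-Hochberg over 5706 features). Of all features tested, 391 (6.85%) were lower and 106 (1.86%) higher in polyA libraries. Among the 108 tested features without a Y name, spike-ins aside, 103 were lower (95.4%) and 2 higher (1.85%), the latter being the RDN58 copies above. The filter on low counts keeps a feature that is high enough in either library type. Features near 0 in polyA libraries thus passed it through the total libraries alone, which largely fixes their direction. Among the 5582 Y-named features 287 were lower (5.14%) and 104 higher (1.86%). The values are relative to the other Y-named reads, and in bulk cultures fewer cells with a transcript and less of it per cell cannot be told apart. The library types also differ in kit, which cannot be told apart from the selection itself.

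All snoRNAs that passed the filter on low counts were lower in polyA libraries, 29 of 29 tested (of 47) in the box C/D class and 29 of 29 (of 29) in the box H/ACA class. The libraries of the 2 types did not overlap for any of them, against 13.8% of all features tested. Members near 0 in polyA libraries, such as snR190 and snR3, passed the filter through the total libraries alone. Their direction was largely fixed by that, so the counts and the lack of overlap describe the tested members only. The median log2 ratio was -9.05 for box C/D and -9.48 for box H/ACA, against 0.01 over all features tested. snR190, whose sequence is given above, stood at a level of 0 to 0.496 (median 0.364) in polyA libraries. In total libraries its level was 4388 to 5584 (median 5165), and the log2 ratio was -14.01 ± 0.14 (SE). The ratio rests on 24 polyA reads over the 6 libraries, so the SE understates its error. snR17a encodes U3, which acts in cleavage of the ribosomal RNA precursor, and stood at 0.429 to 2.48 in polyA libraries (median 1.32). In total libraries its level was 9869 to 12325 (median 10612), a log2 ratio of -12.94 ± 0.12. The second U3 gene, snR17b, had a ratio of -10.92 ± 0.09. snR30, a box H/ACA snoRNA needed for 18S rRNA processing rather than for modification, had a ratio of -10.88 ± 0.10.

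The snoRNAs differed among themselves by a wide margin. At the upper end snR41 (box C/D) had a log2 ratio of -5.40 ± 0.60 and snR44 (box H/ACA) one of -5.71 ± 0.16. By contrast snR3 (box H/ACA) was at -12.30 ± 0.21, on 6 polyA reads, so its ± understates the error. snR41 was low, at 0 to 0.348 in polyA and 5.56 to 13.2 in total libraries, so its place in the order is uncertain. The level of snR44 was 2.46 to 3.72 in polyA libraries (median 3.18) and 115 to 238 in total libraries (median 170). snR86, an unusually long box H/ACA snoRNA, kept the most polyA signal of the abundant members, with 29.5 to 40.1 (median 34.98) in polyA and 4440 to 5556 (median 5354) in total libraries. Its log2 ratio was -7.20 ± 0.06. The 6 tested of 9 intron-hosted snoRNAs, which are cut from spliced introns, had a median of -7.31 and ranged from snR191 at -10.17 ± 0.14 to snR44. Their place in the order was not tested as a group.

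Sequence features were set beside the ratios of the snoRNAs. Across genes, which are not independent replicates, the longest run of A within the gene had a Spearman correlation of -0.09 with the log2 ratio over 29 box C/D snoRNAs and 0.27 over 29 box H/ACA snoRNAs. Gene length gave -0.41 and 0.06, and the mean level -0.63 and -0.23. The mean level enters the ratio through the total libraries, so the last pair of values is a description only.

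The spliceosomal RNAs were lower in all 6 of 6 cases, against 6.85% of all features tested, with a median log2 ratio of -10.31. Those near 0 in polyA libraries again passed the filter through the total libraries alone. LSR1, the U2 RNA, stood at a level of 16.2 to 24.2 (median 20.8) in polyA and 11041 to 14123 (median 12662) in total libraries, a ratio of -9.27 ± 0.08. snR19, the U1 RNA, had a ratio of -10.02 ± 0.11, snR14 (U4) one of -10.10 ± 0.46 and snR6 (U6) one of -10.51 ± 0.39. The U5 RNA is made in a long and a short form. The short form snR7-S had a ratio of -11.65 ± 0.24, and the long form snR7-L had 0 reads in every polyA library and a level of 89.0 to 216 in total libraries, at least 4311-fold higher in total if 3 counts over the polyA group are taken as the limit. The forms share most of their sequence, so reads could be split between them in either way.

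The other structural RNAs were lower in all 5 of 5 cases, against 6.85% of all features tested. Of these, 4 were depleted like the snoRNAs and 1 far less. SCR1, the RNA of the signal recognition particle that targets proteins to the endoplasmic reticulum, stood at 2.75 to 4.82 (median 3.62) in polyA and 19290 to 24777 (median 23321) in total libraries, a log2 ratio of -12.51 ± 0.10. RPR1, the RNA of nuclear RNase P, had a ratio of -10.69 ± 0.10 and NME1, the RNA of RNase MRP, one of -9.93 ± 0.14. RPM1, the RNA of mitochondrial RNase P, had 0 reads in polyA libraries and a level of 20.9 to 44.0 in total libraries, at least 939-fold higher. It passed the filter on low counts through the total libraries alone, which largely fixed its direction. TLC1, the telomerase RNA, is made by RNA polymerase II and is known to occur in a minor polyadenylated and a major untailed form. Its level was 54.2 to 74.9 (median 64.1) in polyA and 183 to 275 (median 202) in total libraries, without overlap, and the log2 ratio was -1.71 ± 0.09, a 3.27-fold difference. The long non-coding RNAs were depleted far less, but all 5 tested (of 11) had ratios below 0. Their median log2 ratio was -0.81 and the highest -0.65, shared by the copies RUF5-1 and RUF5-2, which have identical values. Of the 5, 2 were lower, against 6.85% of all features tested. These were SRG1, which is transcribed across the SER3 promoter, at -0.98 ± 0.16 and ICR1, which crosses the FLO11 promoter, at -0.85 ± 0.18. For both, the libraries of the 2 types overlapped.

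**Figure D2:**
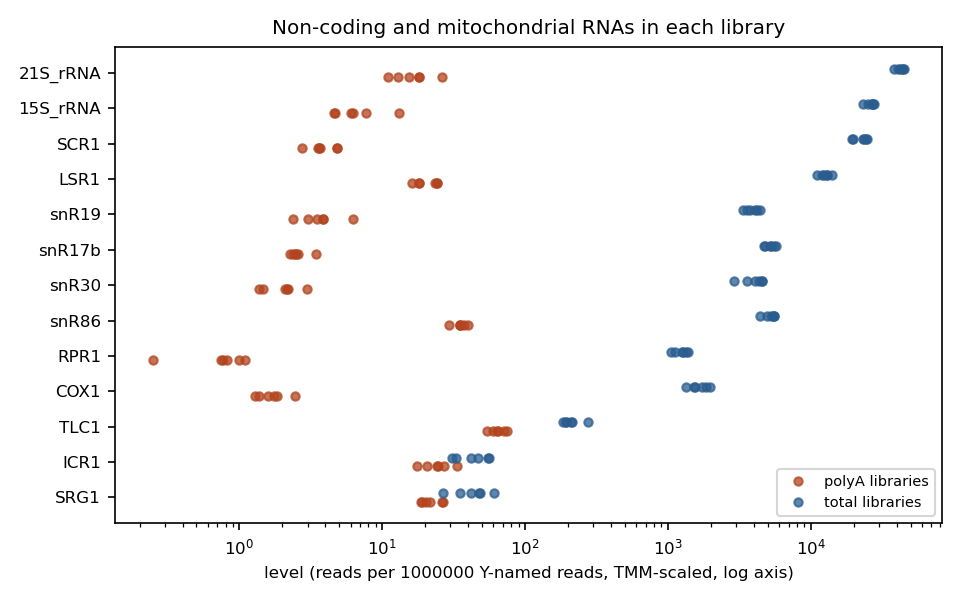
Level (reads per 1000000 Y-named reads, TMM-scaled, log axis) of named non-coding RNAs and of COX1 in each polyA and each total library of mitotic arrest, 1 point per library. SCR1 stood at 2.75 to 4.82 in polyA against 19290 to 24777 in total libraries, and TLC1 at 54.2 to 74.9 against 183 to 275.

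All mitochondrially encoded genes that were tested were lower in polyA libraries. For protein genes these were 18 of 18 tested (of 28), against 6.85% of all features tested. The median log2 ratio was -10.68, or -10.42 with the 3 members that had 0 polyA reads set at their bound. Members near 0 in polyA libraries, such as COB, ATP6 and COX3, passed the filter through the total libraries alone. Their direction was largely fixed by that, so the count describes the tested members only. COB, cytochrome b of respiratory complex III, stood at 0 to 0.331 (median 0.134) in polyA and 754 to 996 (median 905) in total libraries, a ratio of -12.67 ± 0.13. COX1, the largest catalytic subunit of cytochrome c oxidase, stood at 1.29 to 2.46 (median 1.66) and 1338 to 1959 (median 1638), a ratio of -9.92 ± 0.08. The other oxidase subunits COX3 and COX2 had ratios of -12.37 ± 0.16 and -11.72 ± 0.17. The ATP synthase subunits OLI1 and ATP6 had ratios of -11.80 ± 0.10 and -10.75 ± 0.39. COB, COX3, COX2, OLI1 and ATP6 had from 3 (ATP6) to 18 (OLI1) polyA reads over the 6 libraries. Their ± values therefore understate the error. COX1, ATP6, COB, COX2 and COX3 carry the dodecamer shown above, 63 to 101 bases after the stop codon, whereas OLI1 had no match in the window. AI5_BETA, a reading frame within an intron of COX1, had a ratio of -7.76 ± 0.38, the highest of the 18 tested members. VAR1 was too low to test and ATP8 had 0 reads in all 12 libraries. The mitochondrial ribosomal RNAs 15S and 21S had ratios of -11.90 ± 0.15 and -11.31 ± 0.15.

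Some Y-named features among the most depleted lie on or beside such RNAs. YGL088W overlaps snR10 on the same strand and had 0 reads in polyA libraries against a level of 647 to 1194 in total libraries. Counting error alone would put it at least 26248-fold higher in total. Reads of the overlap could be split between the 2 in either way, so this is no firm limit. The log2 ratio of snR10 itself was -8.79 ± 0.23. TAR1 lies opposite the 25S gene RDN25-1, and the counting used strand. It stood at 17.5 to 86.7 (median 23.2) in polyA and 12097 to 15623 (median 13874) in total libraries, a log2 ratio of -8.93 ± 0.26. YLR154W-B and YLR154W-E had ratios of -8.93 ± 0.17 and -10.76 ± 0.15, and RefSeq holds no entry for either.

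**Figure D3:**
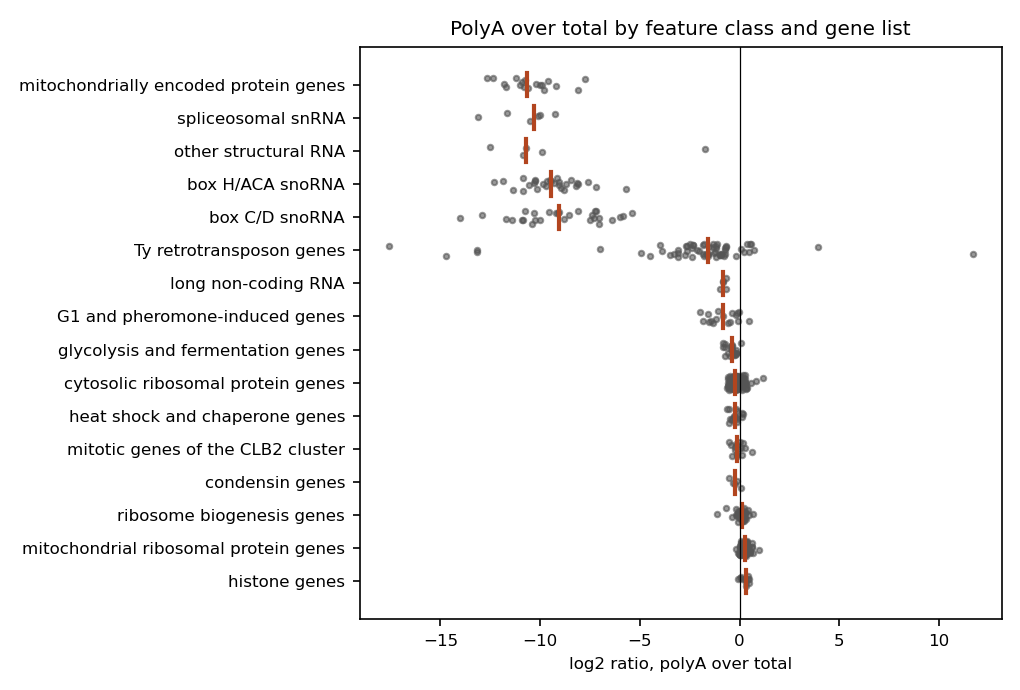
Log2 ratio of polyA to total in mitotic arrest for the tested members of 16 feature classes and gene lists, 1 point per feature with the median as a bar. The mitochondrially encoded protein genes, spliceosomal RNAs, other structural RNAs and both snoRNA classes had medians from -10.69 to -9.05, Ty genes stood at -1.58, long non-coding RNAs at -0.81, and the lists of nuclear messenger RNAs lay between -0.83 and 0.31.

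Most of the Ty retrotransposon genes tested were lower in polyA libraries. Ty elements are copied through an RNA intermediate by the proteins of their TYA and TYB reading frames, and that RNA is packaged in virus-like particles. Of 63 tested Ty genes (of 91), 49 were lower and 2 higher, against 5.14% and 1.86% of all Y-named features. The median log2 ratio was -1.58 against 0.01 over all Y-named features. Ty genes can be long, with 5268 bases in YER138C of Ty1 and 5313 in YBL100W-B of Ty2. Other nuclear genes of 4000 to 6000 bases had a median of -0.54, and 42.3% of them were lower. The part of length in the Ty ratios was not tested. YOL103W-B stood at 2081 to 3507 (median 2694) in polyA and 8307 to 10874 (median 9583) in total libraries, a ratio of -1.79 ± 0.07. YGR109W-B of the Ty3 family stood at 251 to 449 (median 347) and 868 to 1426 (median 1236), a ratio of -1.80 ± 0.05. As a class, Ty took a larger share of all reads in polyA libraries (median 4.06% against 0.360%), but with the ribosomal DNA set aside its share was smaller, 4.45% against 8.14%. All 6 pairs agreed in each case (exact paired permutation test, two-sided p = 0.031). Single copies are uncertain where counting had to split near-identical sequences. YIL082W-A had 0 reads in polyA libraries and a level of 3037 to 4182 in total libraries, whereas YPR158C-C had 0 reads in total libraries and a level of 15.4 to 102 in polyA libraries.

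Among nuclear protein-coding genes of more than 500 bases the ratio fell with coding length. In 5411 genes whose span is free of structural RNA genes, Ty genes set aside, the Spearman correlation of coding length with the log2 ratio was -0.39, and it lay between -0.36 and -0.21 in the single RNA samples. This is across genes, which are not independent replicates. Below 500 bases the order was not stable. The median log2 ratio was 0.12 in 164 genes of under 300 bases and 0.09 in 465 genes of 300 to 500. In single RNA samples these medians ran from -0.16 to 0.36 and from -0.01 to 0.19, across those of the 500 to 1000 bin given below. The median was 0.15 in 1381 genes of 500 to 1000 bases, 0.03 in 2132 genes of 1000 to 2000, and -0.07 in 795 genes of 2000 to 3000. It was -0.24 in 281 genes of 3000 to 4000 bases, -0.54 in 156 genes of 4000 to 6000, and -1.03 in 37 genes of 6000 or more. In the last bin 30 genes were lower (81.1%), and in the bin before it 66 (42.3%), against 5.14% of all Y-named features. Of these 5411 genes, 0 of those with 4000 bases or more were higher in polyA libraries, while 51 of the 1381 genes of 500 to 1000 bases were (3.69%). At 300 to 500 bases 20 genes were higher (4.30%), and under 300 bases 9 genes (5.49%). The medians of the single RNA samples ran from -1.21 to -0.95 in the longest bin and from 0.13 to 0.16 in that of 500 to 1000 bases, so the bins did not overlap.

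**Figure D4:**
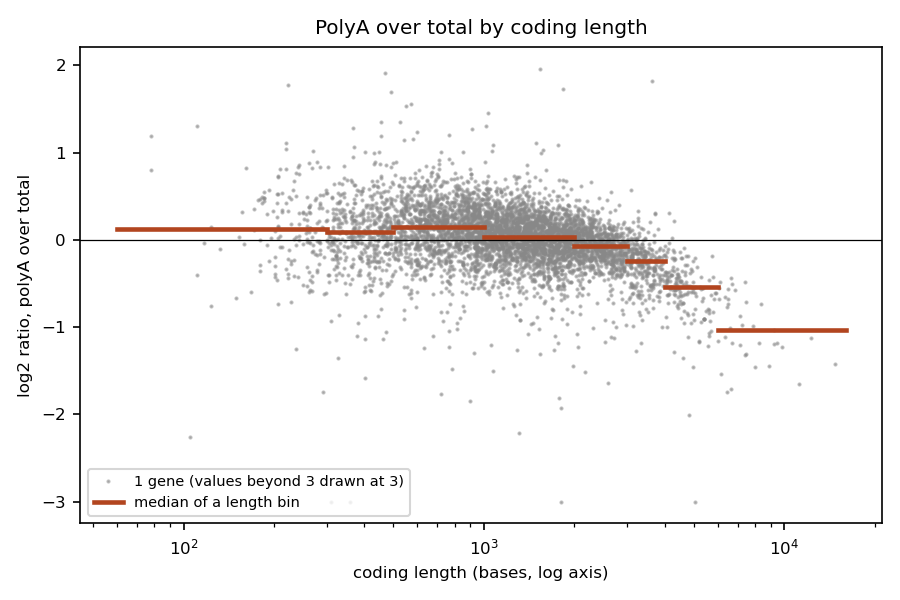
Log2 ratio of polyA to total in mitotic arrest against coding length (bases, log axis), 1 point per nuclear protein-coding gene, with the median of each length bin as a line. The medians were 0.15 at 500 to 1000 bases and -1.03 at 6000 bases or more.

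URA2 carried this difference at high level. It encodes the enzyme of the first steps of pyrimidine synthesis, has a coding length of 6645 bases, and stood at 791 to 1023 (median 887) in polyA and 2548 to 3376 (median 2974) in total libraries. The log2 ratio was -1.71 ± 0.04, a 3.26-fold difference. RRP5, a 5190-base gene for a protein of ribosomal RNA processing, stood at 489 to 696 (median 602) and 1145 to 1557 (median 1353), a ratio of -1.16 ± 0.04. The 3 longest genes tested, named after their values were seen, were also lower. REA1, for an ATPase that remodels pre-60S ribosomes, has 14733 bases and a ratio of -1.43. The dynein heavy chain gene DYN1 has 12279 bases and a ratio of -1.12, and TRA1, shared by the SAGA and NuA4 complexes, has 11235 bases and a ratio of -1.65. Long genes did not all pass the threshold: POL2, for a replicative DNA polymerase, has 6669 bases and a ratio of -0.44, and TOR2 has 7425 bases and -0.48, while its relative TOR1, with 7413 bases, was lower at -1.32.

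Several of the genes with the highest ratios were short. FYV7, of 456 bases and a role in 18S rRNA processing, stood at 52.4 to 101 (median 69.9) in polyA and 23.7 to 37.4 (median 32.5) in total libraries, without overlap, a log2 ratio of 1.20 ± 0.12. RPL41A encodes the smallest ribosomal protein, in 78 bases, and stood at 16.6 to 61.0 (median 30.4) and 0 to 26.4 (median 16.2), a ratio of 1.19 ± 0.35 with overlapping groups. Without replicate 2 of code 14 its ratio was 0.99 and no longer passed (adjusted p = 0.076, edgeR). DAD4, of 219 bases, for a subunit of the DASH complex at kinetochores, stood at 13.1 to 21.9 (median 17.3) and 1.87 to 13.9 (median 8.36), a ratio of 1.04 ± 0.27, again with overlap. Among the most changed Y-named features outside Ty were also YLL066C at 1.83 ± 0.31, YNL140C at 1.55 ± 0.38, YML009W-B at 1.16 ± 0.20 and YDR248C at 1.15 ± 0.30. Total levels of YLL066C were 27.8 to 113 in code 18 and 0 to 9.89 in code 14. Those of YNL140C were 0 to 18.7 and those of YDR248C 0 to 11.2. The groups overlapped for YLL066C and YNL140C.

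Sequence features were set beside the ratios of these genes too. The longest run of A within the gene had a Spearman correlation of -0.0006 with the log2 ratio across the 5411 genes. TATATA, a form of the efficiency element of yeast 3′ ends, was searched on the gene's strand in the 150 bases after the gene. It was found after 44.8% of all 5411 genes, after 43.0% of the 100 higher genes among them, after 45.2% of the 5094 genes not called and after 35.02% of the 217 lower ones. The lower genes are also longer, and the part of length in this share was not tested.

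The gene lists of nuclear messenger RNAs moved little as groups, and most members did not pass the test. Of 20 tested glycolysis and fermentation genes (of 21) 5 were lower and 0 higher, against 5.14% and 1.86% of all Y-named features, and the median log2 ratio was -0.39. PDC1, pyruvate decarboxylase, stood at 11985 to 14840 (median 13291) in polyA and 21528 to 25308 (median 22895) in total libraries, a ratio of -0.81 ± 0.06. The phosphofructokinase subunit gene PFK2 had a ratio of -0.81 ± 0.05, and PGK1, ENO2 and PFK1 were also lower, while GPM1 (phosphoglycerate mutase) was at 0.05 ± 0.05. With a smooth trend on coding length subtracted, all 20 members lay below it, with a median of -0.43. The mean level also had a Spearman correlation of -0.27 with the log2 ratio across the 5411 genes. Level was not subtracted, and its part in the list was not tested. When libraries were scaled by their sum of Y-named reads alone, the list median was -0.02 and PDC1 and PFK2, both at -0.44, were not called.

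Cytosolic ribosomal protein genes had a median log2 ratio of -0.22, with 3 of 137 lower and 1 higher. Among the lower ones were RPL13B and RPL37A, many of whose family have near-identical partner genes, and the higher one was RPL41A. Nuclear-encoded mitochondrial ribosomal protein genes had a median of 0.28, with 0 of 74 lower and 5 higher. Over all Y-named features 5.14% were lower and 1.86% higher. MRPS16 led these, at 29.6 to 38.5 (median 36.4) in polyA and 14.9 to 24.4 (median 16.2) in total libraries, a ratio of 0.96 ± 0.16. Scaling by the sum of Y-named reads moved these medians to 0.15 and 0.64, so the sign of the first depends on the scaling. Relative to the length trend, which leaves level aside, 115 of 134 cytosolic members and 16 of 74 mitochondrial members lay below it.

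The histone genes, whose messages carry poly(A) tails in yeast, had a median log2 ratio of 0.31, and 0 of 11 passed both thresholds. HHF2, for histone H4, stood at 97.2 to 186 (median 108) in polyA and 59.2 to 141 (median 88.8) in total libraries, a ratio of 0.48 ± 0.09. HHF1 was at 0.50 ± 0.16 and HTA1, for histone H2A, at -0.10 ± 0.12. The counts that follow stand against 5.14% of Y-named features lower and 1.86% higher, and for the ribosome biogenesis genes and the chaperones the share that was lower is near that background. Of 36 ribosome biogenesis genes 2 were lower (RRP5 and UTP10) and 1 higher (RPF1 at 0.66 ± 0.12, or 0.56 and not called without replicate 2 of code 14). Of 17 heat shock and chaperone genes the ribosome-associated Hsp70 gene SSB1 was lower at -0.64 ± 0.05, and the other 16 were not called. Of 14 genes with known early termination by the Nrd1-Nab3-Sen1 complex, 2 were lower, URA2 and the long glucan synthase gene GSC2, also known as FKS2, at -1.04 ± 0.07, and the median was -0.12. None of 5 condensin genes was called, and YCG1 had the lowest ratio of them. Of 15 mitotic genes of the CLB2 cluster SPO12, which acts in mitotic exit, was higher at 0.62 ± 0.10 (0.54 without replicate 3 of code 18, below the fold threshold), and CLB2 itself was at -0.12 ± 0.08. The medians of the CLB2 cluster, the Nrd1-Nab3-Sen1 list, the chaperones and the condensin genes were below 0 and became positive when libraries were scaled by their sum.

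The list of G1 and pheromone-induced genes had the lowest median of the nuclear messenger RNA lists, Ty set aside. Most of its members encode proteins of mating and cell fusion and are shut down after release from the pheromone. In M, 9 of 17 were lower in polyA libraries and 0 higher, with a median log2 ratio of -0.83, against 5.14% of Y-named features lower. AGA1, the anchor of the a-agglutinin that joins mating cells, stood at 57.2 to 131 (median 95.7) in polyA and 181 to 401 (median 263) in total libraries, without overlap, a ratio of -1.51 ± 0.07. FIG2, a cell wall adhesin gene of 4830 bases, stood at 48.9 to 117 (median 67.7) and 143 to 658 (median 275), a ratio of -2.01 ± 0.13. FIG1, for a membrane protein of mating, stood at 2.49 to 11.1 (median 4.24) and 2.78 to 52.8 (median 21.2), a ratio of -1.85 ± 0.31 with overlapping groups. The cell fusion gene FUS1 had a ratio of -1.31 ± 0.25 and PRM1 one of -1.44 ± 0.19. BAR1, for the protease that degrades α-factor, was at -1.19 ± 0.20, and FUS2, PRM2 and PRM3 were also lower. The pheromone receptor gene STE2 was at -0.09 ± 0.05, and SIC1, a G1 gene that is not a mating gene, was at 0.50 ± 0.16. Total libraries held few reads for some of these genes, over the 6 libraries 20 for PRM3, 48 for AGA2 and 66 for FIG1 and for FUS1. AGA1 had 882 and FIG2 1092. The log2 ratio of PRM3 ran from -2.52 to 1.18 in single RNA samples and was lower in 5 of 6. With the length trend subtracted, 16 of 17 members lay below it, with a median of -0.79.

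The same cultures in G1 give the ratios of these genes in another arrest. A model of all 24 libraries tested the difference of the polyA-to-total ratio between M and G1 (edgeR quasi-likelihood test of the interaction, adjusted over 5801 features). Of these, 16 (0.276%) had a lower ratio in M and 6 (0.103%) a higher one. These calls rest on the pairing of the libraries: without it 0 were called and 222 features had an unadjusted p under 0.05, while DESeq2 with the pairing called 21. 8 of the 17 G1 and pheromone-induced genes were among the 16, and the list median of the difference was -1.01. AGA1 levels had medians of 94.2 (polyA) and 259 (total) in M and of 5655 and 6915 in G1, so its log2 ratio ran from -1.67 to -1.37 in M and from -0.50 to -0.09 in G1. The groups did not overlap, and the difference was -1.23 ± 0.10 (adjusted p = 2.1e-07). FIG1 differed by -2.18 ± 0.27 (adjusted p = 0.00011), with medians of 540 (polyA) and 436 (total) in G1. PRM1 differed by -1.37 ± 0.15 and FUS1 by -1.43 ± 0.20. FUS2, FIG2, AGA2 and PRM3 differed by -1.17 ± 0.17, -1.22 ± 0.17, -1.01 ± 0.19 and -1.99 ± 0.40. Total reads of AGA2 and PRM3 in M were few, as given above. STE2 differed by -0.05 ± 0.08 and FAR1, which arrests the cycle in response to pheromone, by -0.08 ± 0.12, and neither was called. The levels of the called genes in M are far below those in G1, and the part of level in the ratio was not tested.

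**Figure D5:**
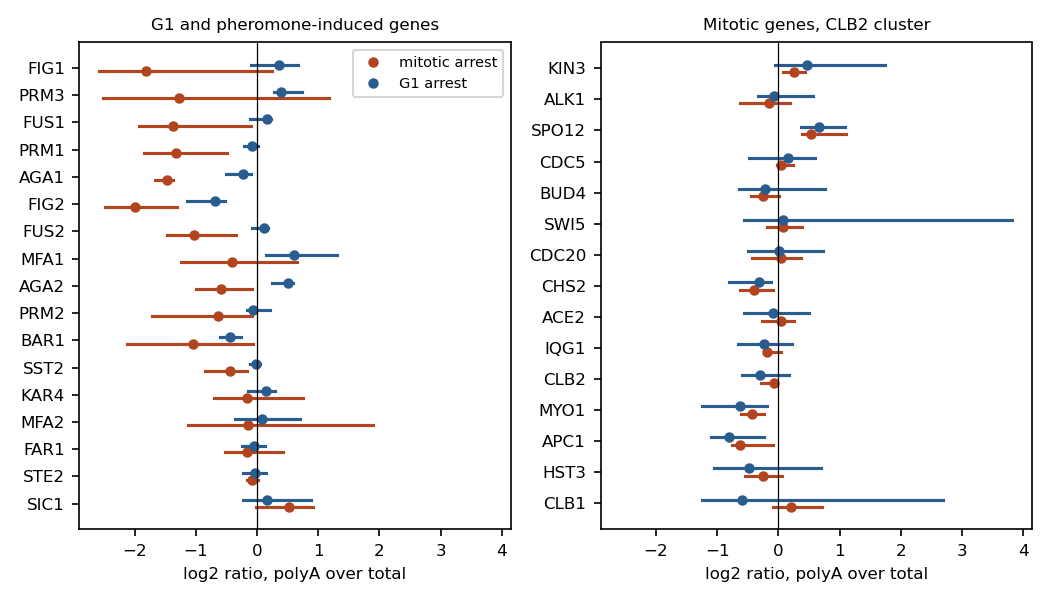
Log2 ratio of polyA to total in mitotic arrest and in G1 arrest for G1 and pheromone-induced genes (left) and for mitotic genes of the CLB2 cluster (right), with points at the median and lines from the lowest to the highest of 6 RNA samples. AGA1 ran from -1.67 to -1.37 in M and from -0.50 to -0.09 in G1, and none of the CLB2 cluster genes was called in the test between the arrests.

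The remaining differences between the arrests, named after their values were seen where they fell outside the 6 of lowest p in each direction, were few. The mating-type a gene ASG7 differed by -1.30 ± 0.26, IME4, for an RNA methyltransferase of meiosis, by -1.92 ± 0.33 and EFM5 by -0.67 ± 0.12. Ty3 gene YGR109W-B differed by -0.83 ± 0.08 (adjusted p = 2.1e-06), YIL080W, which RefSeq does not hold, by -0.94 ± 0.11, and the Ty2 genes YBL100W-B, YDR210W-B and YDR261W-B by -0.68 ± 0.11, -0.64 ± 0.13 and -0.80 ± 0.13. In the other direction SAM1, for S-adenosylmethionine synthetase, had log2 ratios of -0.65 to -0.21 in M and -3.34 to -1.45 in G1, a difference of 1.61 ± 0.26 (adjusted p = 0.0027). MET6, methionine synthase, had ratios of -1.37 to -0.66 in M and -2.50 to -1.42 in G1, a difference of 0.86 ± 0.17 (adjusted p = 0.017), which was 0.80 and not called without replicate 1 of code 18 (adjusted p = 0.064) or replicate 3 of code 14 (adjusted p = 0.071). TLC1 had ratios of -1.94 to -1.43 in M and -2.81 to -2.01 in G1, a difference of 0.73 ± 0.13 (adjusted p = 0.010). Its polyA level had a median of 63.1 in M and 30.8 in G1, and its total level 199 and 165. The other 3 with a higher ratio in M were the Ty2 copy YCL020W and the features YML133C and YFL064C, each with 0 reads in 1 or more libraries. Leaving out single RNA samples ended the call of YFL064C (replicates 1 and 3 of code 18, replicate 1 of code 14) and of YML133C (replicate 1 of code 18). None of the snoRNA, spliceosomal, mitochondrial, histone or ribosomal protein features tested was called in this comparison, and the length bins had medians of the difference between -0.03 and 0.05.

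Few features were called as differing between the strain codes in M. The difference of the ratio between the codes was tested over 5706 features, and 3 (0.0526%) had a lower and 5 (0.0876%) a higher ratio in code 18. Leaving out 1 RNA sample at a time gave 1 to 6 lower and 2 to 9 higher, and without the pairing 0 were called (236 at an unadjusted p under 0.05). FIG2 was among the latter, with log2 ratios of -1.65 to -1.31 in code 18 and -2.48 to -2.35 in code 14, a difference of 0.90 ± 0.14 (adjusted p = 0.0095). Without replicate 1 of code 18 its difference was 0.79 (adjusted p = 0.090), and without replicate 1 of code 14 it was 0.85 (adjusted p = 0.059). CQD1 ran from 0.49 to 1.25 in code 18 and from -1.13 to -0.74 in code 14, but its call was lost on leaving out any of the 6 RNA samples. The hexose transporter gene HXT6, which has a near-identical neighbour, and 5 Ty genes made up the rest. The list of G1 and pheromone-induced genes had a median difference of 0.06 between the codes.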

How the data were processed

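RNA was sequenced as 76 bp strand-specific single-end reads. The authors trimmed adapters with cutadapt 1.9.1, aligned with STAR 2.5.2a and counted genes on their strand with RSEM 1.3.0 against Ensembl R64-1-1, release 90. The deposited values used here are expected counts per gene, which share multimapping reads among copies by likelihood. They were rounded to whole numbers. The other 24 columns of values, TPM of the same libraries, were not used. The study's own tests used DESeq2 1.12.3.

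Of 7218 features, 6685 have names starting with Y, and 322 had no read in any M library. Library size was the sum over Y-named features with TMM factors from these (1.11 to 1.16 in polyA, 0.862 to 0.893 in total libraries). Features passing filterByExpr with a minimum count of 10 were fitted in edgeR 4.0.16 (R 4.3.3, quasi-likelihood F test) with RNA sample as a block, and adjusted p-values are Benjamini-Hochberg over all features tested. Calls needed an adjusted p of at most 0.05 and 1.5-fold. Log2 values of single RNA samples used a pseudocount of 0.5 reads per 1000000. Shares were compared with exact paired permutation tests. DESeq2 1.42.0, other scalings and filters, each strain code alone and leaving out each RNA sample were alternatives. 2 alternatives, a scaling without Ty genes and overlaps and a subtracted length trend, were chosen after seeing the data. The scripts were tested on simulated data. Python 3.11.15, pandas 2.3.3, scipy 1.17.1 and matplotlib 3.10.9 were used besides.

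The pairing comes from the design, as each RNA was made into both libraries. Over 3168 Y-named features, deviations of the 2 libraries of an RNA from their group means correlated at 0.150 to 0.442. The ± values are the absolute log2 ratio over the square root of the quasi-likelihood F statistic. That statistic takes in the spread of the ratio between RNA samples. For features with few polyA reads, such as COB with 10 over the 6 libraries, these values fall below the counting error. They understate the uncertainty there, and the order of such features is uncertain. For 0 reads the bound was 3 counts over a group of 6 libraries, which covers counting error only. Columns were matched to arrest and library type, since the strain codes are not explained in the labels. Coordinates and sequences are from RefSeq R64, which holds 6006 of the Y-named features. Ty genes were assigned by these coordinates, so a feature that RefSeq does not hold, such as YIL080W, was counted as not Ty.

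Named genes were the 8 most changed in each direction among called Y-named and among other features (mean level of at least 10, all 6 pairs alike), the 3 highest and the most changed members of each list, all spliceosomal, other structural, mitochondrial ribosomal and histone members, the main mitochondrial genes, YCG1, and the 6 of lowest p per direction in each interaction. Others are given as examples of their list. 1 gene that the rule names is not reported here. Members and lists were chosen with earlier results of these data known.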

Additional observations from a re-analysis of the deposited data

Results flagged for a closer look

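In 6 groups a single value lay far from the other 5 (71 groups were examined, and chance marks about 5% of them). The share of mitochondrially encoded protein genes was 0.0324% in the total library of code 18 replicate 3, the lowest of the 6. Within single RNA samples the log2 ratio of TAR1 was -7.19 and that of COX3 -10.47 in code 14 replicate 2. That of YDR248C was 4.72 in code 14 replicate 1, and that of snR7-S was -7.87 in code 14 replicate 3. HHF1 was at 2.06 in code 18 replicate 3. YDR248C stood at 0 in the total library of its RNA sample and COX3 at 0 in the polyA library of its own. The pseudocount therefore limits these 2 values.

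The ratio of polyA to total differed between M and G1 in the interaction test (log2, M minus G1) for AGA1 at -1.23, PRM1 at -1.37, FIG1 at -2.18, FUS1 at -1.43, YGR109W-B at -0.83 and YIL080W at -0.94. It differed in the other direction for SAM1 at 1.61, MET6 at 0.86, TLC1 at 0.73, YCL020W at 10.28, YML133C at 3.74 and YFL064C at 5.28. YCL020W had 0 reads in all 6 polyA libraries of G1, so its fitted value is no bound.

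The ratio differed between the strain codes in M (log2, code 18 minus code 14) for YOR142W-A at -4.96, YBR012W-B at -10.31, YER138C at -0.60, YDR365W-B at 1.93, FIG2 at 0.90, HXT6 at 3.84, YCL020W at 3.45 and CQD1 at 1.81. YBR012W-B had 0 reads in all 3 total libraries of code 14, so its fitted value is no bound. Apart from FIG2 and CQD1 these have near-identical copies elsewhere in the genome, among which the counting split reads.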

How the results depend on the processing

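The depletion of structural and mitochondrial RNAs did not depend on the scaling: between 101 and 103 of the features without Y names were called lower under every scaling. All scalings shared the filter, so features that passed it through the total libraries alone could hardly come out otherwise. Calls among Y-named features did. Scaling by the sum of Y-named reads without TMM moved their median log2 ratio by 0.37 and gave 135 lower and 1220 higher (9.96% of calls lower, against 73.4%), and over all features 237 and 1226. Spike-in scaling gave 126 and 52 (227 and 54 over all features), adjusted p alone 965 and 627 (1069 and 629), and a 2-fold threshold 127 and 15 (228 and 17). Without the replicate block 256 Y-named features were lower and 96 higher, and 452 of 497 calls were shared. The arrest and code interactions then gave 0 calls in each direction. Leaving out the block changed no other count by over 1.5 times, but ended the calls of RPL41A, YLL066C, MET6 and YFL064C in M. Leaving out each RNA sample gave 265 to 291 lower and 81 to 123 higher Y-named features, 12 to 16 lower and 3 to 7 higher in the arrest interaction, and 1 to 6 lower and 2 to 9 higher in the code interaction. The code interaction had 10 and 13 calls with no filter, and 1 higher call with DESeq2. The share of Ty reads, higher by 3.80 percentage points in polyA libraries, was -3.91 points with the ribosomal DNA set aside. The 2 shares have unlike bases, as nuclear ribosomal DNA took a median of 95.7% of reads in total and 6.12% in polyA libraries. Why the Ty share was lower on the second base was not tested. Total libraries held at most 805916 Y-named reads, which limits the precision for low genes.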
